A study of Nothobranchius furzeri with 15 samples.

Results

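In brains of the turquoise killifish (Nothobranchius furzeri), 80 genes stood higher at the lower of 2 rotenone doses than both in the solvent and at the higher dose. They are 80 of the 17956 genes with a mean count of at least 20 and of 26739 gene identifiers in all. The members were chosen by their measured levels: the median at 15 pM had to exceed the DMSO median and the 150 pM median by at least 1.5-fold, on the scale of CPM (counts scaled to equal library totals) plus 1. That excess, taken as the smaller of the 2 log2 differences, is called the margin below. Because the same libraries chose the members, the excess at 15 pM is a description and carries no test.

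All fish were 9-week-old males of the inbred GRZ strain, and brain RNA was sequenced. The groups were DMSO, the solvent (5 libraries), 15 pM rotenone (4 libraries) and 150 pM rotenone (6 libraries as labelled). The series description gives 5 libraries to each group, so the dose of 1 library labelled 150 pM is in doubt. The number in the title of 150 pM replicate 1 comes just before those of the 15 pM libraries, so the doubt falls on it. The choice of members did not use that library, and it is given apart from the other 14 throughout. Neither the route and duration of treatment nor the number of fish behind a library is known from the labels. Library totals lay between 19401441 and 23210889 counts.

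Rotenone blocks complex I, the enzyme through which electrons from NADH enter the mitochondrial respiratory chain. Strong inhibition lowers ATP production and raises reactive oxygen species, and in the vertebrate brain dopaminergic neurons are known to be sensitive to it. Mild inhibition of complex I has been studied in this short-lived fish in relation to lifespan. The deposited tables do not pair gene identifiers with names and the gene table used here holds none of them, so no function is given for any member. Besides 2 identifiers, members are given by their rank in margin, their implied length and their values.

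The 80 members did not form one pattern. In 7 of them the level was low in most DMSO and 150 pM libraries and high in every library at 15 pM, with margins between 3.78 and 6.34. The next largest margin was 1.29, and 68 of the 80 members had a margin under 1. That is under 2-fold on the scale of CPM plus 1, where folds of low genes are understated. The median margin was 0.72. The 15 pM median was not above every library of the other groups for most members: the highest DMSO library exceeded it in 44 of the 80, and in 19 of the 80 that DMSO library exceeded all 4 libraries at 15 pM. The name "high at 15 pM alone" thus holds for group medians and, library by library, for a minority. At the edge of the rule, the 3 members just inside had margins of 0.59 at 2 decimals and the 3 genes just outside had margins of 0.58. Of the 3 inside, the 15 pM medians were 1.82, 15.7 and 11.9 CPM, and of the 3 outside 5.64, 5.28 and 9.44 CPM.

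**Figure D1:**
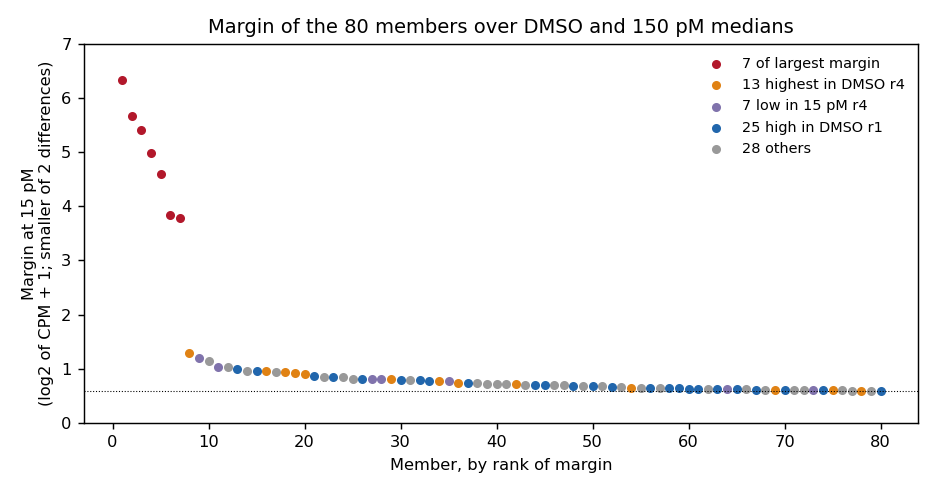
Each point is 1 of the 80 members, placed by its rank (horizontal) and its margin at 15 pM on the log2(CPM + 1) scale (vertical), with the dotted line at the limit of the rule and colours for the 5 subgroups described in the text. The 7 members of largest margin lie between 3.78 and 6.34, apart from the other 73, which lie at 1.29 or less.

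All 80 members were clustered by how they varied over the 10 DMSO and 150 pM libraries, that is, without their values at 15 pM. The clustering was average-linkage on 1 minus Pearson's r, cut at 0.5. The 7 members of largest margin were set apart whatever their cluster, and the other 73 were divided by cluster. This gave 13 members whose highest library among those 10 was always DMSO replicate 4, 25 members that were high in DMSO replicate 1, a cluster of 7 members low in 15 pM replicate 4, and 28 others in smaller clusters. These names only label the clusters: 15 pM replicate 4 was the lowest of its 4 libraries in 22 of the 80 members, namely all 7 of that cluster, 8 of the 25, 4 of the 13 and 3 of the 28. The division was made after the values were seen, so no test was run on it. In bulk tissue, more cells of a type and more RNA per cell cannot be told apart.

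**Figure D2:**
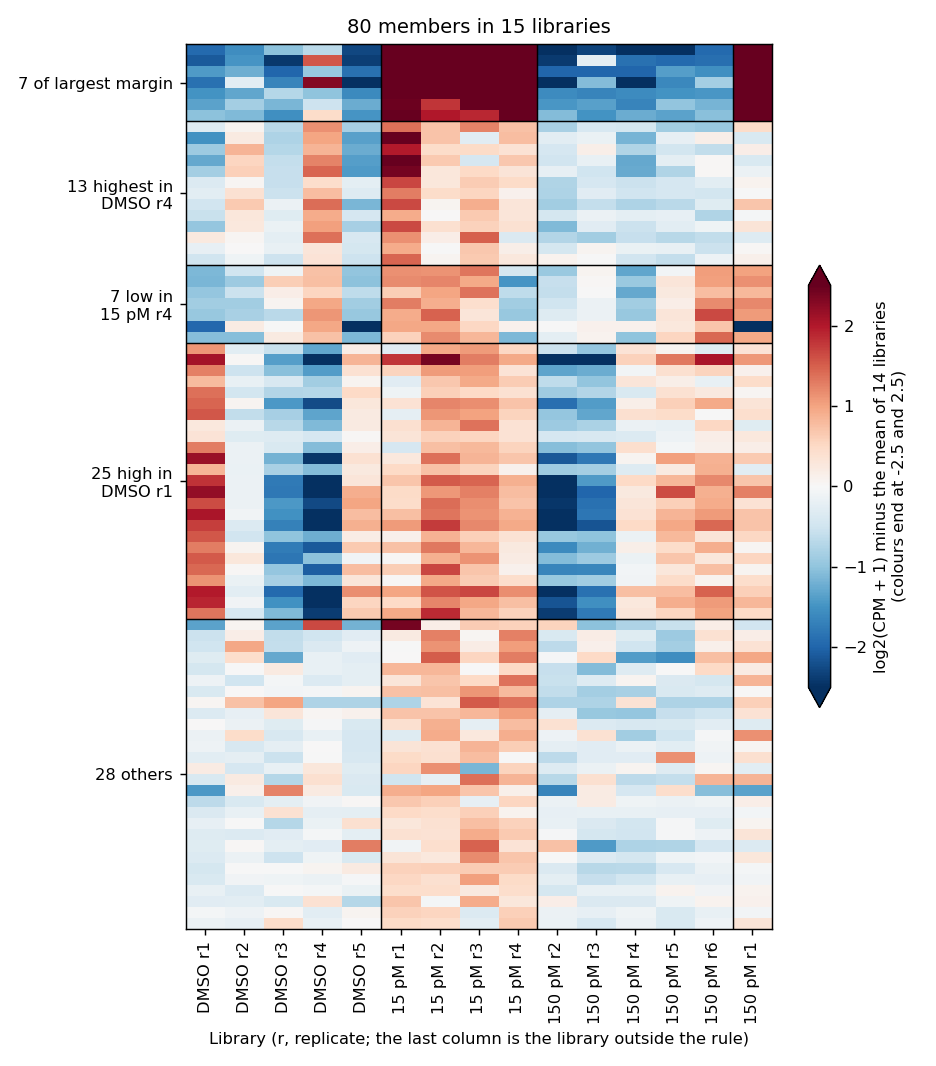
Rows are the 80 members in the 5 subgroups and columns the 15 libraries, in order of dose, with the library outside the rule last. Colour gives log2(CPM + 1) minus the gene's mean over 14 libraries. The 7 members at the top are high in each 15 pM library and in 150 pM replicate 1, and the 25 members high in DMSO replicate 1 are low in DMSO replicates 3 and 4 and in 150 pM replicates 2 and 3.

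The 7 members of largest margin were abundant at 15 pM and low in most other libraries. The member of largest margin, Nfu_g_1_007507 (implied length 444 bases, as derived from the deposited RPKM), stood at 1.98, 2.91, 4.61, 6.22 and 1.38 CPM in DMSO replicates 1 to 5. In the 15 pM libraries it stood at 922, 296, 253 and 335 CPM (replicates 1 to 4), and in 150 pM replicates 2 to 6 at 0.595, 1.29, 0.520, 0.567 and 1.99 CPM. Every 15 pM library thus lay above every library of the 2 other groups, and 15 pM replicate 1 was far above the other 3. The means were 3.42 ± 1.98 CPM in DMSO (SD, n = 5), 452 ± 315 at 15 pM (n = 4) and 0.993 ± 0.642 at 150 pM (n = 5).

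Over all 7 members, counts per library ran from 2 to 2415 in DMSO, from 211 to 18980 at 15 pM and from 1 to 251 in the 5 libraries at 150 pM. For each of the 7, the 4 libraries at 15 pM lay above the 10 others. Their summed level ranged from 3.70 to 146 CPM in DMSO, from 634 to 1777 CPM at 15 pM and from 3.54 to 16.6 CPM at 150 pM. The mean at 15 pM was 1021 ± 513 CPM (SD, n = 4). The high end in DMSO was replicate 4, in which the member of rank 4 reached 116 CPM, and DMSO replicate 4 was the highest of the 10 other libraries for 6 of the 7.

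The 7 did not peak in the same library. At 15 pM, 4 of them were highest in replicate 1, 2 in replicate 3 and 1 in replicate 4, and 5 were lowest in replicate 2. The 2 that peaked in replicate 3 were the members of rank 3 (915 bases) and rank 6 (432 bases), which stood there at 139 and 75.8 CPM. Rank 3 stood at 41.4 to 81.0 CPM and rank 6 at 10.9 to 25.5 CPM in the other 3 libraries at 15 pM. The 7 were short: their median implied length was 444 bases and 5 were under 1000 bases. Ranks 1, 4, 5 and 6 had lengths of 444, 435, 435 and 432 bases. Genes with near-identical copies can share or lose reads, and the labels do not say how such reads were counted. Whether any of the 7 are such copies was not tested.

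The library outside the rule played no part in choosing these genes. In 150 pM replicate 1 each of the 7 lay above all 5 DMSO libraries and above the 5 other libraries at 150 pM, as did 18 of the 80 members and 17.0% of the 17956 genes. Nfu_g_1_007507 stood at 181 CPM in it, below each of the 4 libraries at 15 pM. The members of rank 3 and rank 6, at 201 and 76.7 CPM, were above every library at 15 pM. The summed level of the 7 was 715 CPM, within the range at 15 pM.

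Across all members the same library was at least 1.5-fold above both the DMSO and the 150 pM median in 28 of the 80 members (35.0%), against 0.540% of the 17956 genes. The 1.5-fold is on the scale of CPM plus 1, as in the rule. The rule used both the DMSO and the 150 pM median, though not this library. These 28 were 28.9% of the 97 genes that stood so in this library. Of the 28, 7 were the members of largest margin, 6 were of the cluster of 7 low in 15 pM replicate 4, and the other subgroups gave 3 of 13, 6 of 25 and 6 of 28. Of the libraries that the rule did use, 150 pM replicate 6 stood above both medians in 29 members (36.3%), against 0.524% of all genes. DMSO replicates 1 and 4 did so in 24 members each (30.0%), against 0.568% and 0.646%. The 7 members of largest margin gave 1, 0 and 5 of these members, in that order of libraries. The level in 150 pM replicate 1 was nearer to the 15 pM median than to the 150 pM median in 43 members (53.8%), and the same was true of 56.3% of all genes, so in this measure the members were close to the background.

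**Figure D3:**
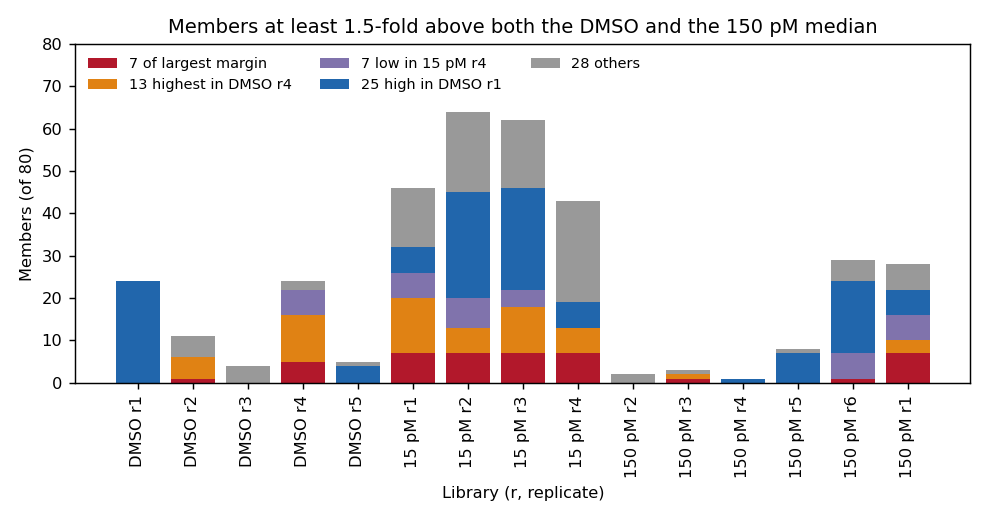
Bars give, for each of the 15 libraries, how many of the 80 members stood at least 1.5-fold above both the DMSO and the 150 pM median, stacked by subgroup. The 1.5-fold is on the scale of CPM plus 1. The 4 libraries at 15 pM reach 46, 64, 62 and 43 members, DMSO replicates 1 and 4 reach 24 each, 150 pM replicate 6 reaches 29 and 150 pM replicate 1, outside the rule, reaches 28.

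The libraries at 15 pM contributed unequally. The members above both medians numbered 46, 64, 62 and 43 in replicates 1 to 4. The background also differed: 1.66%, 0.952%, 6.27% and 0.607% of all genes stood so in these libraries, so that 15 pM replicate 3 was high in 1126 genes in all. At 150 pM, replicates 2 to 5 stood above both medians in 1 to 8 members, against 0.262% to 0.535% of all genes.

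The 13 members highest in DMSO replicate 4 included the 2 members of highest level at 15 pM, in CPM and per length. The member of highest median level at 15 pM was Nfu_g_1_007654 (implied length 816 bases, rank 16). It stood at 414, 1384, 697, 2365 and 466 CPM in DMSO replicates 1 to 5, and at 8677, 1956, 979 and 2030.4 CPM in the 4 libraries at 15 pM. In 150 pM replicates 2 to 6 it stood at 994, 1061, 532, 1032 and 1313 CPM. The groups overlapped: DMSO replicate 4 was above 3 of the 4 libraries at 15 pM, and 15 pM replicate 3 lay within the range of both other groups. The means were 1065 ± 823 CPM in DMSO (SD, n = 5), 3411 ± 3544 at 15 pM (n = 4) and 986 ± 283 at 150 pM (n = 5). The median at 15 pM was 1993 CPM, well under the mean, which replicate 1 raised.

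The member of second highest level (885 bases, rank 19) followed the first closely. The ratio of their CPM had a median of 2.22 over the 15 libraries and stayed between 1.71 and 2.49, while the level of Nfu_g_1_007654 itself ranged from 414 to 8677 CPM. In 12 of the 13 members 15 pM replicate 1 was the highest of the 4 libraries at 15 pM. In 10 of the 13 the highest DMSO library lay above the 15 pM median, and for none of the 13 did the 4 libraries at 15 pM stand clear of the 10 others. The summed level of the 13 had a median of 1197 CPM in DMSO (range 770.3 to 4120), 3105 at 15 pM (1691 to 13078) and 1623 at 150 pM (867 to 2035). In 150 pM replicate 1 it was 1539 CPM, below the lowest library at 15 pM. The 2 most abundant genes made up most of this sum. The other 11 summed to a median of 134 CPM in DMSO (range 105 to 436), 270.3 at 15 pM (227 to 724) and 129 at 150 pM (107 to 160.0), so the 150 pM median lay above the DMSO median only with those 2 genes. For the 11, 150 pM replicate 1 stood at 198 CPM.

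**Figure D4:**
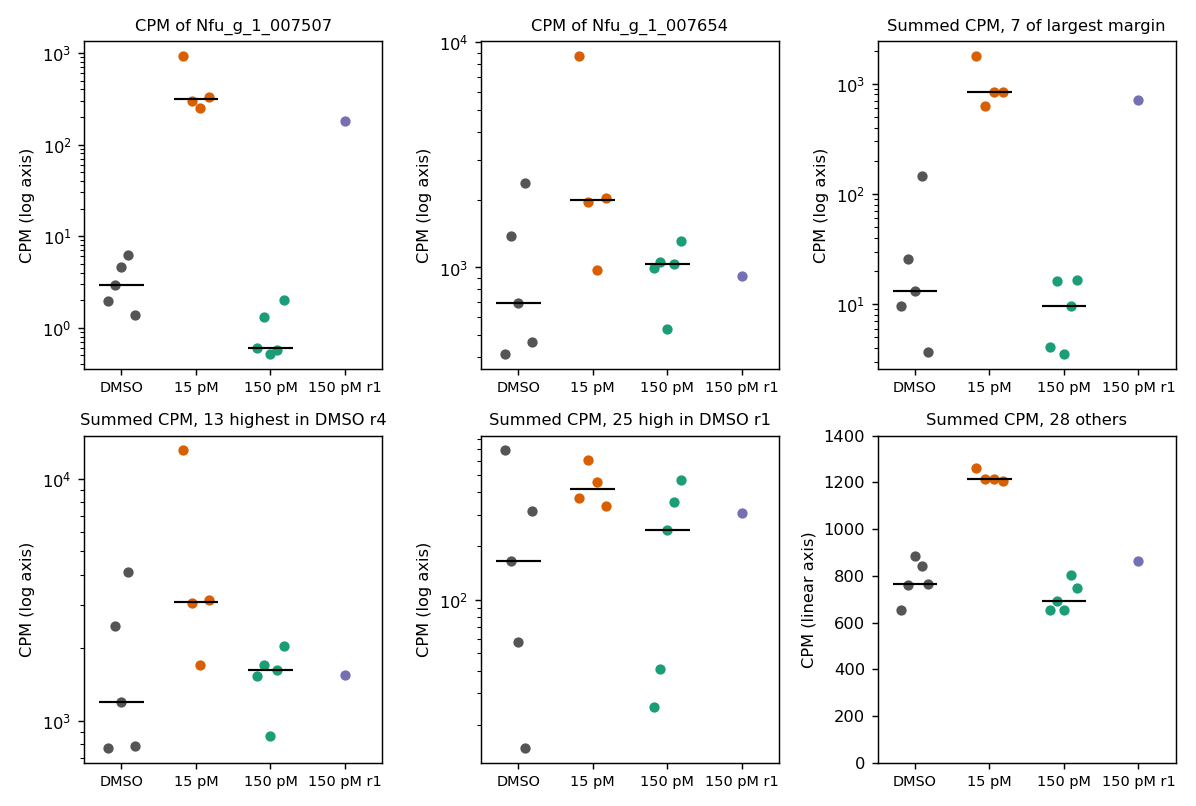
Points are libraries and bars the group medians, by dose, with 150 pM replicate 1 apart; the vertical axes give CPM (log axes, except the last panel, which is linear from 0) of the 2 identifiers printed and summed CPM of 4 subgroups. The 7 members of largest margin separate 15 pM from the other 2 groups (634 to 1777 CPM against at most 146). The sum of the 28 others separates it at a small distance (1205 to 1262 CPM against at most 884), whereas the sums of the 13 and the 25 overlap. Taken singly, 9 of the 28 separate it in every library. The rule used these values, so the separation is a description.

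The 25 members high in DMSO replicate 1 varied widely between the libraries of DMSO and between those of 150 pM, and less at 15 pM. In each of the 25, DMSO replicates 3 and 4 were the lowest 2 of the 5 DMSO libraries, and 150 pM replicates 2 and 3 were the lowest 2 of the 5 libraries at 150 pM. At 15 pM the lowest of the 4 libraries was replicate 1 in 17 of the 25 and replicate 4 in 8. The highest was replicate 2 in 18 and replicate 3 in 7. In the sum of the 25, no library at 15 pM was as low as those DMSO and 150 pM libraries. This did not hold for every member: rank 44 stood at 0.729 CPM in 15 pM replicate 1 and at 0.775 CPM in DMSO replicate 3. The summed level was 686, 165, 58.0, 14.8 and 315 CPM in DMSO replicates 1 to 5. It was 371, 610, 460 and 337 CPM in the 4 libraries at 15 pM and 25.2, 40.9, 247, 352 and 471 CPM in 150 pM replicates 2 to 6. The highest library exceeded the lowest 46.4-fold in DMSO, 1.81-fold at 15 pM and 18.7-fold at 150 pM. The rule asked for a high median at 15 pM, so it favoured genes that were not low in the libraries at that dose. The smaller spread at 15 pM is thus partly set by the choice of members and was not tested. In 150 pM replicate 1 the sum was 306 CPM.

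The highest DMSO library stood above the 15 pM median in 23 of the 25 and above every 15 pM library in 17. The most abundant of them at 15 pM (3151 bases, rank 15) shows the pattern: it stood at 166, 39.5, 14.3, 0.289 and 69.9 CPM in DMSO, at 136, 207, 95.1 and 75.5 CPM at 15 pM and at 2.03, 3.06, 58.4, 97.2 and 162 CPM in 150 pM replicates 2 to 6. All 3 groups overlapped. With either 150 pM replicate 2 or 150 pM replicate 3 left out before the rule was applied, 8 of the 25 remained members. Without 15 pM replicate 2 or 3, 10 and 11 of the 25 remained, against 24 and 25 without 15 pM replicate 1 or 4. In 15 pM replicates 1 to 4, 6, 25, 24 and 6 of the 25 stood at least 1.5-fold above both the DMSO and the 150 pM median. The excess of the 25 at 15 pM thus lay mainly in replicates 2 and 3.

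Genes outside the 25 also varied like most of them. Over the 10 DMSO and 150 pM libraries, 78 genes had an r of at least 0.9 with the mean standardised profile of the 25, of which 22 were among the 25 and 56 were no members. Of these 56, 25 missed the margin against 150 pM alone, 7 against DMSO alone and 24 against both. In 44 of the 56 the highest DMSO library lay above every library at 15 pM. This r is a measure of likeness over libraries that share their group structure and is a description. The 25 were clustered on these same 10 libraries and make up the profile, so their own r is partly set by that choice. The lowest r among the 25 was 0.88. The 13 members highest in DMSO replicate 4 had 34 such genes by their own mean profile. Of these, 8 were among the 13, 1 was a member of another subgroup and 25 were no members. The lowest r among the 13 was 0.72.

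The levels of the 7 members low in 15 pM replicate 4 overlapped between doses as well. The most abundant of them at 15 pM (2094 bases, rank 9) stood at 23.9, 37.4, 49.0, 87.9 and 26.1 CPM in DMSO. It stood at 118, 116, 135 and 38.6 CPM at 15 pM and at 27.3, 55.5, 20.9, 50.7 and 109.9 CPM in 150 pM replicates 2 to 6. Thus 150 pM replicate 6 came close to the 3 high libraries at 15 pM, and 15 pM replicate 4 lay within the range of the other groups. The summed level of the 7 was 32.5, 64.9, 87.2, 153 and 33.3 CPM in DMSO. It was 189, 192, 195 and 62.8 CPM at 15 pM, and 54.4, 90.04, 45.3, 92.3 and 178 CPM in 150 pM replicates 2 to 6. In 150 pM replicate 1 it was 145 CPM, below DMSO replicate 4 and 150 pM replicate 6. The member of rank 64 weighed on this order: it stood at 2.01 CPM in 150 pM replicate 1 and at 36.3 CPM in DMSO replicate 4. Of the 7, 6 stood above both medians in 150 pM replicate 1, against 0.540% of all genes. There 3 lay above all 10 DMSO and other 150 pM libraries, against 17.0% of all genes.

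The 28 other members showed a modest excess at 15 pM, and their sum varied little within each group, though single members varied more. Their summed level was 654, 762, 884, 843 and 765 CPM in DMSO, 1262, 1216, 1216 and 1205 CPM at 15 pM and 654, 694, 655, 802 and 749 CPM in 150 pM replicates 2 to 6. The most abundant at 15 pM (702 bases, rank 72) stood at 221 ± 19.5 CPM in DMSO (SD, n = 5), 324 ± 20.8 at 15 pM (n = 4) and 220.1 ± 29.8 at 150 pM (n = 5). Its 4 libraries at 15 pM (293 to 335 CPM) lay above the 10 others, of which the highest was 262 CPM. In 150 pM replicate 1 this gene also stood at 262 CPM.

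For 9 of the 28 the 4 libraries at 15 pM stood clear of the 10 others. With the 7 members of largest margin this made 16 of the 80, where 5.02% of the 17956 genes stood so. The rule used the same values, so nothing is read from this share. In 150 pM replicate 1, 8 of the 28 lay above each of the 10 DMSO and other 150 pM libraries, where 17.0% of all genes did. The summed level of the 28 in that library was 864 CPM, within the DMSO range (654 to 884) and below the lowest library at 15 pM (1205).

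All 80 members entered edgeR's quasi-likelihood fit of 19306 genes, which used 14 libraries. At an adjusted p under 0.05 (Benjamini-Hochberg over all genes), 26 of the 80 were higher at 15 pM than in DMSO, where 7.86% of all genes were called higher. Between the doses, 38 of the 80 were lower at 150 pM than at 15 pM, where 15.1% of all genes were called lower. Both comparisons share the 15 pM libraries and both were used by the rule, so nothing is read from these counts. In both comparisons 25 were called, namely the 7 of largest margin, 15 of the 28 others and 3 more. In neither comparison were 41 called, of which 23 were among the 25 members high in DMSO replicate 1. The share of all genes called in both or in neither was not computed, so these counts are descriptions only.

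Whether the members differed between the higher dose and the solvent was a comparison on which the rule set no limit. The rule did use the DMSO and 150 pM medians of these libraries, both held under the 15 pM median. The counts below are therefore descriptions too. At 150 pM against DMSO edgeR called 0 of the 80 members and 0% of all genes at an adjusted p under 0.05. At an unadjusted p under 0.05 stood 10 of the 80 members, near the 12.7% of all genes. DESeq2 called 2 of the 80, against 1.16% of all genes it tested. Both were lower at 150 pM and belonged to the 28 others: rank 25 (log2 fold change -0.56, DESeq2 adjusted p = 0.0240) and rank 38 (-0.62, DESeq2 adjusted p = 0.0284). With DMSO replicate 1 left out edgeR called 3 members, and over all genes 443 higher and 118 lower. With 15 pM replicate 3 left out, which enters through the shared spread, it called 1 member, and over all genes 48 higher and 191 lower.

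The members' fold changes at 150 pM against DMSO were spread around a small median. The median fitted log2 fold change was -0.26, with 19 members above 0 and 61 below, where the median over all genes was -0.0046. Without DMSO replicate 1 the members' median was 0.04. The difference of the group medians gave the other sign, with a median over members of 0.05 and 44 members higher at 150 pM. For Nfu_g_1_007507 the fitted value was -1.76 on the log2 scale (SE 0.62, edgeR adjusted p = 0.283), and it was 3.19 (edgeR adjusted p = 0.540) with 150 pM replicate 1 included as labelled. For the 7 members of largest margin the fitted values had a median of -1.54 and all were below 0, but none passed, and by group medians 2 of the 7 stood higher at 150 pM than in DMSO. For Nfu_g_1_007654 the fitted value was -0.10 (SE 0.59, edgeR adjusted p = 0.967).

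Beside all genes of the same count minimum, the members were shorter, less abundant and more variable. Their median implied length was 1717 bases, against 2777 bases for all 17956 genes, and 30.0% were under 1000 bases, against 16.4%. Their median level per length in DMSO was 3.04 RPKM (counts scaled to length and library total), against 8.27 RPKM. The median SD of log2(CPM + 1) among the DMSO libraries was 0.76 for members and 0.13 for all genes. It was 0.49 against 0.17 at 15 pM and 0.51 against 0.11 at 150 pM. These values are partly set by the rule and were not tested.

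The list changed with the libraries. With each of the 14 libraries left out in turn, the rule gave between 64 and 146 genes, and 29 of the 80 members met it in every case. These 29 were the 7 of largest margin, 10 of the 28 others, 5 of the 25, 4 of the 13 and 3 of the 7 low in 15 pM replicate 4. The number reached 146 without 15 pM replicate 4, and 53 to 68 of the 80 members were kept when 1 of the 4 libraries at 15 pM was left out.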

How the data were processed

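Counts of reads per gene in 15 brain libraries were analysed. The authors deposited whole-number counts with no scaling applied, per the file headers and the values. The submitters' processing notes list featureCounts 1.4.6-p4, STAR 2.4.1d and CASAVA 1.8.2. For genome build, annotation and counting settings the answer is not given in the sources used here. Per the labels' protocols the kit was TruSeq RNA v2, which keeps no strand information, so overlapping antisense genes cannot be told apart. The authors also deposited RPKM values, most of them divided by another library's total, and these served only to derive gene lengths; levels per length were recomputed from each library's own total.

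Replicates were numbered in accession order, which pairs no libraries; numbers in the titles were checked for pairing. Each CPM value is a count scaled by its library total. On the log2(CPM + 1) scale differences of low genes are understated. Counts of every pair of libraries differed by more than sampling noise (chi-square over degrees of freedom at least 7.37 in the 105 pairs). The test was edgeR 4.0.16 (R 4.3.3): filterByExpr as the filter, TMM scaling, and a robust quasi-likelihood fit in 1 model of 3 groups. 150 pM replicate 1 was left out of it, as of the choice of members. Since no source ties libraries to separate fish, p-values reflect library-to-library spread, possibly technical. DESeq2 1.42.0, other scalings, filters and sets of libraries were tried. Clustering used SciPy 1.17.1.

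The identifiers matched 0 entries of the gene table. The 2 identifiers printed are the member of largest margin and the member of highest median CPM at 15 pM, by a rule set with earlier results of these data known, as were the members and lists. The most abundant member of each other subgroup, described without its identifier, was chosen after values were seen. Lists of marker genes were not run, since no gene could be named.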

Additional observations from a re-analysis of the deposited data

Results flagged for a closer look

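Of 24 groups of values examined with Dixon's gap test, 8 held a library far from the rest of its group, where chance gives about 1 in 20 for groups not picked by their values. Here the members and clusters were picked by these values and share genes, so the number is not to be read against chance, and the gaps are descriptions. In 15 pM replicate 1, Nfu_g_1_007507 stood at 922 CPM, where the next library had 335, and Nfu_g_1_007654 at 8677 CPM, where the next had 2030.4. The 80 members summed to 16677 CPM in that library (next 5724) and the 13 members highest in DMSO replicate 4 to 13078 CPM (next 3138).

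Among the 6 libraries labelled 150 pM, replicate 1 stood at 181 CPM for Nfu_g_1_007507 (next 1.99) and at 715 CPM for the sum of the 7 members of largest margin (next 16.6). In this library, which took no part in choosing the members, all 7 of these members lay above every DMSO and every other 150 pM library, as did 17.0% of all genes. In DMSO, the 7 summed to 146 CPM in replicate 4 (next 25.5). The cluster of 7 members named for being low in 15 pM replicate 4 summed there to 62.8 CPM (next 189). Whether the library labelled 150 pM replicate 1 received another dose was not tested.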

How the results depend on the processing

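The rule gave 80 genes, and 124 with group means in place of medians. It gave 12 with a margin of 1 (2-fold on the scale of CPM plus 1) and 171 with a pseudocount of 0.1. Of the 80, 58 were among the genes chosen by means and all 80 among those chosen with the smaller pseudocount. With each library left out in turn it gave 64 to 146. TMM scaling (99), a mean count of 100 (54), no minimum count (83), 150 pM replicate 1 included as labelled (65) and removal of each library's length trend (87) kept it within 1.5 times, as did leaving out DMSO replicates 1 and 4 together (81) or 15 pM replicates 1 and 3 together (85), which were chosen after seeing the data.

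At 150 pM against DMSO the members called were 2 by DESeq2 and 0 to 3 with a library left out, against 0 as reported; the cause was not tested. Their median log2 fold change ran from -0.48 to 0.04 with a library left out (0.040 without DMSO replicate 1). For Nfu_g_1_007507 the log2 fold change turned to 3.19 with 150 pM replicate 1 included as labelled. For Nfu_g_1_007654 it ran from -0.31 to 0.43 with a library left out. The members called at 15 pM against DMSO numbered 18 to 28 (26 as reported), those between the doses 28 to 41 (38), and those whose libraries stood clear of the 10 others 16 to 20 (16), over the other alternatives, apart from the fits by title number below. Over all genes, 632 to 2518 were called higher at 15 pM than in DMSO (1517 as reported), with the same exception. Between the doses, 1817 to 3857 of all genes were called lower at 150 pM (2912 as reported). The libraries at 15 pM stood clear of the 10 others in 5.02% of the 17956 genes as reported. That share was not computed for the alternatives. A mean count under 100 was found in 26 of the 80 (32.5%), against 19.5% of all genes. Numbers in the titles are shared by the 4 libraries at 15 pM and DMSO replicates 2 to 5. With the analysis limited to these 8 libraries, edgeR called 11 members at 15 pM against DMSO. Of the 18963 genes tested, it called 48 higher and 138 lower. With the title number as a replicate block, it called 0 members and 0 of all genes at an adjusted p under 0.05. At an unadjusted p under 0.05 stood 3902 genes in that fit. Both fits were chosen after seeing the data. The deviations of 1 of the 4 same-numbered pairs correlated above 0.1 (r from -0.20 to 0.11), and 0 of the 4 libraries at 15 pM correlated best with its own number. With 4 pairs, these values cannot decide whether same-numbered libraries share more than a number. For 150 pM against DMSO no paired analysis was possible because the titles share only 1 number. That number is the one of 150 pM replicate 1, which the fit left out.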
